A study of Mus musculus with 8 samples.

Results

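The genes described here encode the machinery that copies DNA in S phase. They are 44 mouse genes, chosen by name for their roles in replication and sorted into 9 role groups, out of 23420 gene symbols in the deposited count table. All 44 were detected in every library and all 44 entered the test of 14861 genes, with 542 to 15327 counts per gene and library. RNA came from the branchial arches and looping heart of single mouse embryos at 10.5 days post coitum. One group was 4 embryos mutant for Pygo2, whose product takes part in transcription by β-catenin, and the other was 4 wild-type littermates. The labels name neither the altered part of Pygo2 nor a strain, and no driver line or treatment. Each library is a separate embryo, so the spread between libraries is that between animals.

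Replication starts when the origin recognition complex, Cdc6 and Cdt1 load the ring of Mcm proteins onto DNA in G1. Cdc45 and the GINS complex then turn that ring into an active helicase, primase and the polymerases copy the strands, and Pcna holds the polymerases on DNA. Many of these genes are transcribed at the G1 to S boundary by E2F factors, so their RNA is a common readout of how many cells in a tissue are cycling. Arch mesenchyme at this stage grows quickly, whereas differentiating heart muscle cells divide less often than the arch cells around them.

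The libraries held 20823890 to 28175968 counts. Levels are given in CPM, the count as a share of the TMM-scaled library size. Pygo2 lay between 44.6 and 56.2 CPM in the 4 wild-type embryos and between 17.3 and 22.0 CPM in the 4 mutants, and was the 1 gene called among all those tested (edgeR quasi-likelihood adjusted p = 0.00805). Markers of the labelled tissues were present: all 12 arch mesenchyme and all 10 heart muscle markers had counts in every library. Libraries that carry the same number in the 2 groups deviated together from their group means, with correlations over genes from 0.185 to 0.676. The numbers were treated as pairs, although wild-type 2 correlated more with mutant 1 and wild-type 4 more with mutant 3 than with their own numbers. Wild-type 3 and mutant 4 reached 0.628, and wild-type 1 and mutant 2 reached 0.482, so these correlations do not single out the pairing.

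None of the 44 replication genes passed the test between mutants and wild-type embryos, and for each the difference was within the spread between embryos. With the quasi-likelihood test of edgeR, 0 members were called at an adjusted p under 0.05, against 0.00673% of all tested genes, and the adjusted p of each was 1.0. Counting instead by an unadjusted p under 0.05 gave 0 members, where 1.30% of all tested genes lay, and the smallest member p was 0.158. The values of the 2 groups overlapped for every member, against 0.484% of tested genes that lay higher in mutants without overlap and 0.559% that lay lower. The median log2 fold change of the members, mutant over wild-type, was -0.05 beside a median of 0.0 over all tested genes, with 12 members higher and 32 lower.

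The intervals of the fit for genotype alone show how large a difference could still be hidden in that fit. All 44 of the 95% intervals of the log2 fold change included 0 and lay inside -1 to 1, that is, within a halving and a doubling, and 36 lay inside -0.5 to 0.5. The lowest bound was -0.74, for Rpa3, and the highest was 0.56, for Cdt1. In these whole-tissue libraries, fewer cells in S phase and less RNA per cell cannot be told apart.

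The slight excess of lower members changed when single embryos were left out, and its size as a count also with the scaling. Members were mostly low in embryos 1 and 2 and high in embryos 3 and 4 of both groups, as given below. Leaving out 1 embryo therefore unbalances the groups and moves the median by itself. Leaving out wild-type 4, mutant 1 or mutant 2 in turn moved the median to 0.0155, 0.0129 and 0.0198, with 25, 23 and 27 members higher. It was -0.13 without mutant 3, with 4 higher, and 5, 6 and 5 were higher without wild-type 1, wild-type 2 and mutant 4. With every library kept, 11 members were higher with RLE scaling and with DESeq2. There were 9 with limma-voom and with the replicate number as a block. Scaled on library totals alone, 20 members were higher and 24 lower, with a median of -0.01 where that of all genes was 0.04. The median of the members thus stayed below that of all genes under this scaling.

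**Figure D1:**
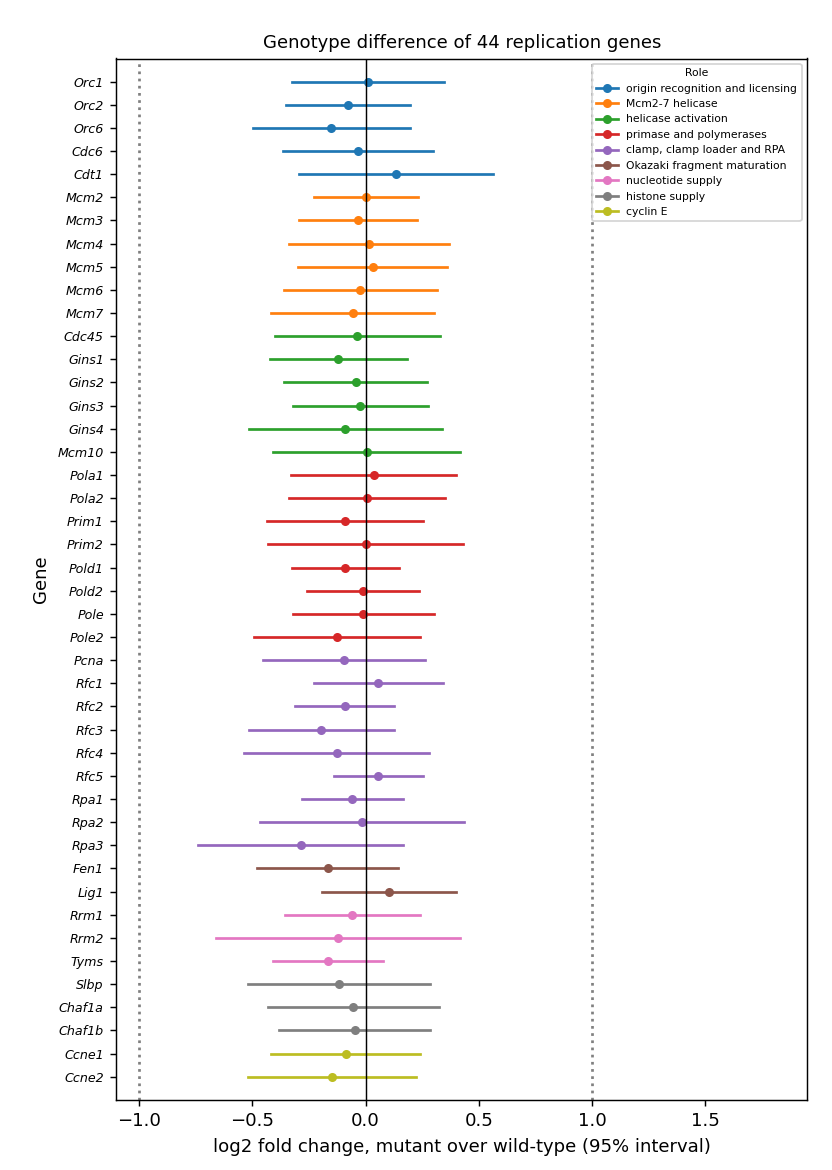
The horizontal axis gives the log2 fold change of each of the 44 genes, mutant over wild-type, as a point with its 95% interval, coloured by role. Dotted lines mark a halving and a doubling, and all 44 intervals cross 0 and stay between them. The intervals are those of the fit for genotype alone.

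Levels between genes were compared per length, as RPKM (CPM per kilobase of the union of annotated exons). Pcna, the sliding clamp, was the most abundant at 135 ± 18.6 RPKM in wild-type embryos and 127 ± 25.1 in mutants (SD, n = 4 each). Rrm2, the small subunit of ribonucleotide reductase, followed at 102 ± 27.5 and 93.3 ± 25.6 RPKM, and its spread overlapped that of Mcm7, Mcm5 and Mcm4. At the low end stood Gins2 and Gins3, subunits of GINS, with means over all libraries of 10.3 and 10.3 RPKM, and Chaf1a, the large subunit of the CAF-1 histone chaperone, with 10.3 RPKM. The span from Pcna to Gins2 was thus 131 to 10.3 RPKM over all 8 libraries. Each of the Mcm2 to Mcm7 proteins contributes 1 subunit to the helicase ring, but the RNA levels were uneven, with Mcm7 at 93.9 and Mcm2 at 40.7 RPKM. Within single libraries the highest of these genes was 2.04 to 2.54 times the lowest. The order depends on the length used, since the longest annotated transcript of Mcm2 is 3494 bases against an exon union of 6956. By longest transcript Mcm7 was still the highest of the 6, at 140 RPKM, Mcm2 was at 81.1 RPKM and Mcm6 was the lowest at 78.3 RPKM.

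**Figure D2:**
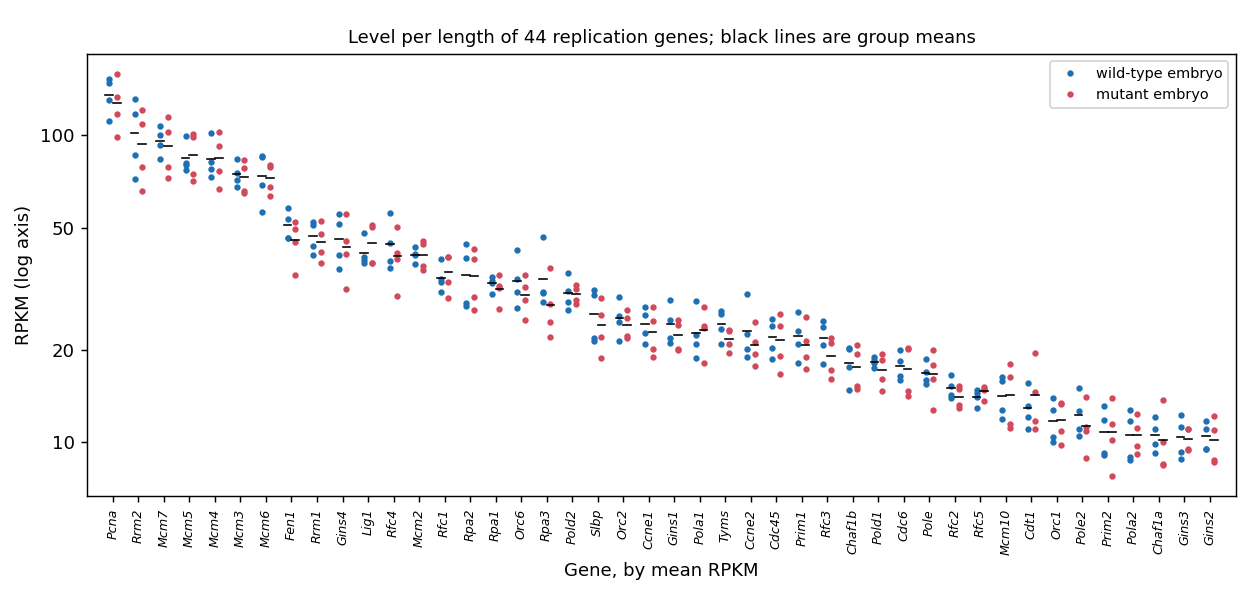
The vertical axis gives RPKM on a log scale for each gene in every embryo, with wild-type embryos in blue, mutants in red and black lines at the group means. Genes are ordered by their mean, from Pcna at 131 to Gins2 at 10.3 RPKM, and the red and blue points overlap for every gene.

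Promoters are shown because E2F binding is the textbook link among these genes. Whether it has a part in the shared movement between embryos, described below, was not tested. RefSeq promoters (GRCm38.p6, 250 bases before to 50 after the transcript start) were matched by symbol for 36 of the 44 members. There were 42 of them, and a gene counted if any of its promoters held the letters. An E2F octamer (TTTCCCGC, TTTCGCGC, TTTGCCGC or TTTGGCGC, either strand) stood in 13 of the 36, or 36.1%, against 4.51% of the 10756 tested genes and 2.61% of the 27025 genes with a promoter in that table. The 13 were Orc1, Cdc6, Cdt1, Mcm3, Mcm5, Mcm6, Mcm7, Pola1, Pold1, Pole2, Gins3, Rfc3 and Lig1, and 5 of them held more than 1 octamer. CCAAT, the letters bound by NF-Y, stood in 24 of the 36 (66.7%) against 42.7% of the tested genes, and TTTGAA, the letters of the cell cycle homology region, in 5 of the 36 (13.9%) against 13.8%. These are counts of letters in a window, not of bound sites.

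Of the genes given with values in every library below, the 4 most abundant with an octamer are printed 5′ to 3′ on the strand of the gene, with the octamer or its reverse complement in capitals. Mcm7 lies on the minus strand (chr5:138171834-138172133), with matches that begin 165 bases upstream and 16 bases downstream of the start, the second sharing 1 base with a CCAAT. Pola1 lies on the minus strand (chrX:93632106-93632405), with a match 138 bases upstream. Lig1 lies on the plus strand (chr7:13278576-13278875), with a match 26 bases downstream, and Pold1 on the minus strand (chr7:44548766-44549065), with a match 39 bases downstream. RefSeq also lists other promoters of Mcm7 and Lig1, without an octamer, and the windows printed are those that hold a match.
Mcm7: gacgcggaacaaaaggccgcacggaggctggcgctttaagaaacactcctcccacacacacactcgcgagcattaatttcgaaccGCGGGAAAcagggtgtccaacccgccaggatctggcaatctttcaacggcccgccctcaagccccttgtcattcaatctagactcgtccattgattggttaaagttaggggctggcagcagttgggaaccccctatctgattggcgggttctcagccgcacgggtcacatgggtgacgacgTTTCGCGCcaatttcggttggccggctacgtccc
Pola1: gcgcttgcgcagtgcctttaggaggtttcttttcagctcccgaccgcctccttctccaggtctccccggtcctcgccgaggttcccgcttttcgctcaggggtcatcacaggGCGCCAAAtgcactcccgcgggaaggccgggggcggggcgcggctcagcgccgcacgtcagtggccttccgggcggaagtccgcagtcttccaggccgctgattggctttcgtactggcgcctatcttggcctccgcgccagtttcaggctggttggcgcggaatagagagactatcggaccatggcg
Lig1: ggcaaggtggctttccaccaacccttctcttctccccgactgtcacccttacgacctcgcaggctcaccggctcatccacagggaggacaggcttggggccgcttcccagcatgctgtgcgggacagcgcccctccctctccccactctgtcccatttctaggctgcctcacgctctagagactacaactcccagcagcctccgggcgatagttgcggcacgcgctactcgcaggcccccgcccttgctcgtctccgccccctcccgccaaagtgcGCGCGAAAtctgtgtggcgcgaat
Pold1: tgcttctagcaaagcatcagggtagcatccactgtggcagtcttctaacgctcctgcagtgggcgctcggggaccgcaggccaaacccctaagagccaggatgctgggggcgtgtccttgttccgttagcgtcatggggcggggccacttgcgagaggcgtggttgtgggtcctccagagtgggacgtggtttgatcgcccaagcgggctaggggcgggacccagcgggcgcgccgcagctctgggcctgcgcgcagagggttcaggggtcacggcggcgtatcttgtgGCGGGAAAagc

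Genes that recognise and license origins overlapped between genotypes. Orc2 (ENSMUSG00000026037.14, mm10 chromosome 1, 58462771 to 58505109, minus strand), a core subunit of the origin recognition complex, was at 95.3, 82.4, 115 and 99.5 CPM in wild-type embryos 1 to 4 and at 84.3, 85.4, 104 and 98.0 CPM in mutants 1 to 4. Its highest value was in wild-type 3 and its lowest in wild-type 2, and the log2 fold change was -0.08 (SE 0.12, interval -0.35 to 0.20). Orc6 (chromosome 8, 85299632 to 85308278), the subunit least like the others of that complex, was at 67.6, 76.1, 104 and 83.7 CPM in wild-type embryos and 61.9, 71.7, 86.3 and 78.8 CPM in mutants. Wild-type 3 was again the highest, and each mutant lay below the wild-type embryo of its number (log2 -0.15, SE 0.15). Cdc6, the ATPase that works with the complex to load the helicase, was at 92.6 ± 9.74 CPM in wild-type embryos and 90.5 ± 17.5 CPM in mutants (SD, n = 4 each). Orc1, the ATPase subunit of the complex, was at 40.9 ± 6.54 and 41.2 ± 6.24 CPM.

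The 6 genes of the Mcm ring had log2 fold changes from -0.06 to 0.03, the smallest in size of the 9 role groups. Mcm7 (ENSMUSG00000029730.16, chromosome 5, 138164583 to 138172422, minus strand) was at 370, 410, 443 and 474 CPM in wild-type embryos 1 to 4 and at 349, 320, 454 and 507 CPM in mutants 1 to 4. The highest and the lowest value both came from mutants, and the log2 fold change was -0.06 (SE 0.16, interval -0.42 to 0.30). Mcm2 had the narrowest interval of the ring, from -0.23 to 0.23, with 264 to 301 CPM in wild-type embryos and 252 to 314 CPM in mutants. Mcm3, Mcm4, Mcm5 and Mcm6 were at -0.03, 0.02, 0.03 and -0.02 on the log2 scale.

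Factors that activate the helicase gave the same picture. Mcm10 (chromosome 2, 4989714 to 5012791), which helps the loaded helicase start to unwind DNA, was at 91.5, 97.7, 122 and 125 CPM in wild-type embryos and 85.5, 88.0, 138 and 126 CPM in mutants. Embryos 3 and 4 of each genotype were above embryos 1 and 2, and the group means of 109 and 109 CPM could not be separated (log2 0.0044, SE 0.18). Gins1 (chromosome 2, 150905400 to 150931280) was at 33.1, 31.8, 44.1 and 37.8 CPM in wild-type embryos and 30.4, 30.3, 37.8 and 36.5 CPM in mutants (log2 -0.12, SE 0.13). Each mutant was below the wild-type embryo of its number, though the groups overlapped. Cdc45 was at -0.04, Gins2 at -0.04, Gins3 at -0.02 and Gins4 at -0.09 on the log2 scale.

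Primase and the replicative polymerases likewise overlapped. Pola1 (chromosome X, 93304767 to 93632155), the catalytic subunit of the polymerase that extends primers, was at 184, 166, 253 and 197 CPM in wild-type embryos and 160, 207, 243 and 210 CPM in mutants (log2 0.04, interval -0.33 to 0.40). Pold1 (chromosome 7, 44532746 to 44548849), the catalytic subunit of the lagging-strand polymerase, was at 88.3, 90.1, 84.9 and 92.2 CPM in wild-type embryos. In mutants it was at 94.2, 78.2, 71.5 and 90.3 CPM, so that mutant 3 had the lowest value although most members were high there (log2 -0.09, interval -0.33 to 0.15). Pole, the catalytic subunit of the leading-strand polymerase, was at 187 ± 15.6 CPM in wild-type embryos and 186 ± 33.7 CPM in mutants. The accessory subunits Pola2, Pold2 and Pole2 were at 0.0063, -0.01 and -0.13 on the log2 scale, and the primase subunits Prim1 and Prim2 at -0.09 and 0.00.

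The clamp, its loader and the single-strand binding protein held the member with the lowest fold change. Pcna (ENSMUSG00000027342.14, chromosome 2, 132249162 to 132253314, minus strand) was at 267, 313, 364 and 356 CPM in wild-type embryos 1 to 4 and 282, 237, 319 and 379 CPM in mutants 1 to 4 (log2 -0.09, interval -0.45 to 0.26). Rpa3 (chromosome 6, 8255936 to 8259173), the smallest subunit of the single-strand binding protein RPA, was at 34.7, 32.6, 52.7 and 34.9 CPM in wild-type embryos and 24.9, 28.1, 41.8 and 32.1 CPM in mutants. Wild-type 3 stood far above the other wild-type embryos, and each mutant was below the wild-type embryo of its number (log2 -0.29, SE 0.20, interval -0.74 to 0.16). Rpa1 and Rpa2, the other RPA subunits, were at -0.06 and -0.02. Of the 5 genes of the clamp loader RFC, Rfc1 and Rfc5 were at 0.06 and 0.06, Rfc2 and Rfc4 at -0.09 and -0.13, and Rfc3 at -0.20 (SE 0.14). Rfc5 varied least between embryos of all members, from 60.5 to 70.6 CPM over the 8 libraries, and was the 1 member higher in mutants in 4 of 4 pairs.

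Enzymes that join Okazaki fragments differed in sign but not beyond error. Lig1 (chromosome 7, 13277283 to 13311433), the ligase that seals nicks, was at 163, 168, 171 and 205 CPM in wild-type embryos and 164, 164, 214 and 218 CPM in mutants (log2 0.11, interval -0.19 to 0.40). Fen1 (chromosome 19, 10199132 to 10204169), the nuclease that trims the flaps, was at 112, 112, 129 and 140 CPM in wild-type embryos and 109, 84.9, 119 and 126 CPM in mutants (log2 -0.17, interval -0.48 to 0.14). Mutant 2 held the lowest Fen1 value, and the groups overlapped for both genes.

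Among genes that supply nucleotides, Rrm1 (chromosome 7, 102441695 to 102469771), the large subunit of ribonucleotide reductase, was at 449, 480, 573 and 562 CPM in wild-type embryos and 421, 459, 578 and 524 CPM in mutants. Its log2 fold change was -0.06 (SE 0.13). Tyms (chromosome 5, 30058202 to 30073617), which makes thymidylate, had the smallest unadjusted p of all members, 0.158 in the edgeR test of all genes. It was at 127, 142, 160 and 163 CPM in wild-type embryos and 119, 127, 141 and 140 CPM in mutants (log2 -0.17, SE 0.11, interval -0.41 to 0.08). Rrm2 had the widest spread by edgeR's tagwise estimate, with a biological coefficient of variation of 24.6%, and ranged from 182 CPM in mutant 2 to 364 CPM in wild-type 4.

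Slbp and the CAF-1 genes link replication to new histones. Slbp (chromosome 5, 33634952 to 33652574), which binds the stem-loop at the end of replication-dependent histone mRNA, was at 129, 133, 190 and 184 CPM in wild-type embryos and 115, 133, 180 and 158 CPM in mutants (log2 -0.12, SE 0.18). Chaf1b, the middle subunit of CAF-1, was at -0.05 and Chaf1a at -0.05. Cyclin E drives the entry into S phase, and its genes were at similar levels per length, with Ccne1 at 23.6 and Ccne2 at 21.9 RPKM over all libraries. Ccne2 (chromosome 4, 11191351 to 11204779) was at 78.9, 70.2, 106 and 66.2 CPM in wild-type embryos and 62.0, 74.0, 86.1 and 67.9 CPM in mutants, highest in embryo 3 of each group (log2 -0.15, SE 0.17). Ccne1 was at 64.7 ± 8.09 and 60.8 ± 10.7 CPM (SD, n = 4 each) and was lower in 4 of 4 pairs.

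Taking the numbers as pairs did not add a call. With the replicate number as a block in edgeR, 0 members passed, and the lowest adjusted p of any was 0.968. The block left 3 members with an unadjusted p under 0.05, Rpa3, Tyms and Rfc3, against 5.01% of all tested genes. Members lower in mutants in 4 of 4 pairs numbered 8 (Orc6, Gins1, Rfc2, Rfc3, Rpa3, Fen1, Tyms and Ccne1), against 5.88% of all tested genes. Rfc5 alone was higher in 4 of 4 pairs, against 6.27% of all tested genes. Members vary together, so these counts are not independent.

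The members varied together between embryos of the same genotype. Each gene was set against its own mean log2 CPM over the 8 libraries, and the members above it were counted. In wild-type embryos 1 to 4 there were 8, 8, 34 and 40 of 44 members above their mean, and in mutants 1 to 4 there were 6, 2, 40 and 37. Over all tested genes the share above the mean was between 47.8% and 51.5% in every library. The mean log2 CPM of the members was 6.62, 6.64, 6.90 and 6.90 in wild-type embryos and 6.54, 6.55, 6.89 and 6.85 in mutants. The members took 0.553% of all counts in mutant 2, the lowest share, and 0.706% in mutant 4, the highest.

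A count made after these values were seen gives the extent of the shared pattern. Of the 44 members, 22 were below their mean in embryos 1 and 2 and above it in embryos 3 and 4 of both genotypes, as were 8.65% of all tested genes and 13 of 28 genes of mitosis. The 22 came from all 9 role groups and included Orc6, Mcm7, Cdc45, Mcm10, Prim1, Pole, Rpa2, Fen1, Rrm2, Slbp, Chaf1b and Ccne1. The mean log2 CPM of the mitosis genes was 7.20, 7.23, 7.43 and 7.47 in wild-type embryos and 7.14, 7.20, 7.49 and 7.41 in mutants, the same embryos being high and low as for replication.

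**Figure D3:**
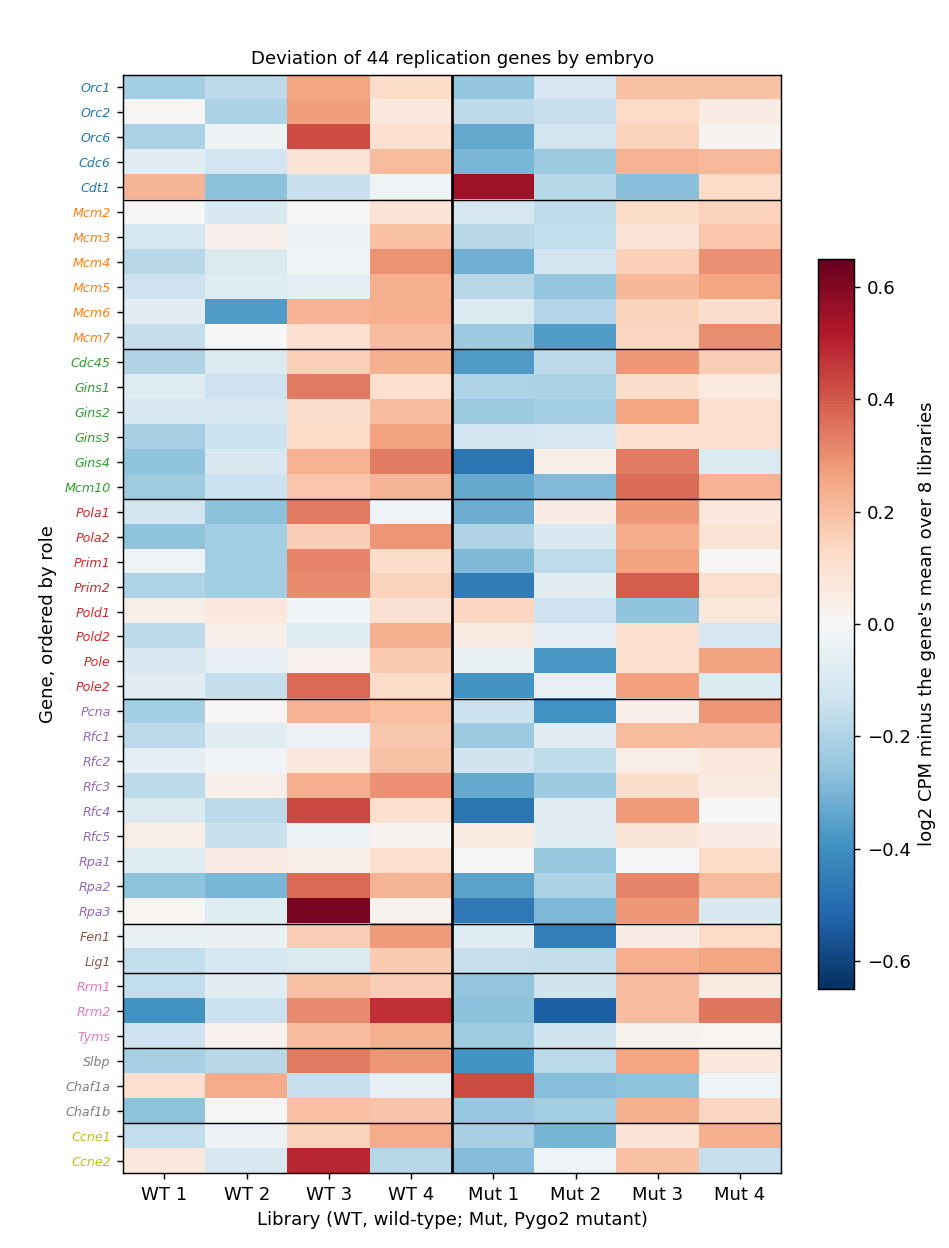
Rows are the 44 genes by role and columns the 8 embryos, and colour gives log2 CPM minus the mean of the gene over all libraries. Embryos 3 and 4 of both genotypes are mostly red (34 to 40 of 44 genes above their mean) and embryos 1 and 2 mostly blue (2 to 8 of 44). Cdt1, Chaf1a, Pold1, Pold2, Rfc5 and Ccne2 are among the genes that depart from this.

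Some of the members that departed from the shared pattern are named here because of their values. Cdt1, the loading factor that geminin inhibits, was at 48.8, 34.8, 38.0 and 41.1 CPM in wild-type embryos and 61.5, 36.8, 34.7 and 45.6 CPM in mutants, and so was highest in embryo 1 of each genotype. Chaf1a was at 97.5, 107, 81.4 and 87.1 CPM in wild-type embryos and 121, 74.5, 75.3 and 88.5 CPM in mutants, with mutant 1 the highest. Pold1, given above, was also highest in mutant 1 and lowest in mutant 3. Pold2, Rfc5 and Ccne2 departed in several libraries as well.

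Base composition of the transcript moved with the deviations in some libraries, most in wild-type 3 and mutant 1. Cdt1, Chaf1a and Pold1 have longest transcripts with 57.8%, 52.7% and 61.0% G and C, against a median of 48.3% over the members and 49.8% over 13946 tested genes. Other members went against this. Mcm7 (53.4%) and Fen1 (53.8%) followed the shared pattern, and Ccne2 (36.3%) did not. Across the 44 members, Spearman's rho between transcript GC and the deviation in a library was -0.75 in wild-type 3 and 0.62 in mutant 1. In the other libraries it was 0.14, 0.31 and 0.13 in wild-type 1, 2 and 4, and -0.29, -0.41 and 0.32 in mutants 2 to 4. Over the 13946 tested genes with a matched transcript it ran from -0.35 in wild-type 3 to 0.29 in mutant 1. These are correlations across genes within a library, and genes are not independent replicates. The part of base composition in the results was not tested.

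Markers of cell types in the dissection also differed between embryos. Heart muscle genes had a mean log2 CPM of 9.29, 9.43, 8.42 and 8.39 in wild-type embryos 1 to 4 and 9.91, 9.48, 8.76 and 8.49 in mutants 1 to 4, so they were lower in embryos 3 and 4 of each group, where replication genes were higher. Their 10 markers summed to between 7567 and 17570 CPM in wild-type embryos and between 11110 and 23520 CPM in mutants, and all 10 had a fold change above 0 (median log2 0.27) with 0 called. Neural genes had a mean log2 CPM of 1.88, 2.65, 4.83 and 2.98 in wild-type embryos and 0.98, 3.04, 4.92 and 4.88 in mutants. Their 15 markers, with Sox1 at 0 in some libraries, summed to 246 to 1002 CPM in wild-type embryos and 213 to 1085 CPM in mutants.

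The 8 endothelial genes were, like heart muscle genes, lower in embryos 3 and 4 of each group, with a mean log2 CPM of 5.89, 5.77, 5.35 and 5.51 in wild-type embryos and 5.75, 5.82, 5.40 and 5.46 in mutants. They summed to 420 to 617 CPM in wild-type embryos and 437 to 598 CPM in mutants, and 4 were higher and 4 lower in mutants with 0 called. Erythroid genes were highest in wild-type 1, at a mean log2 CPM of 8.06 against 5.05 to 6.76 in the other libraries, and 11 of the 12 listed had a row, summing to 4745 to 23460 CPM in wild-type embryos and 2830 to 9345 CPM in mutants, with Hba-a1 at 0 throughout. Mutants 3 and 4 were the lowest of their group for this list, and 8 of its 9 tested genes had a fold change below 0 (median log2 -0.75) with 0 called. The 12 arch mesenchyme genes summed to 321 to 582 CPM in wild-type embryos and 304 to 409 CPM in mutants. Their mean log2 CPM was 3.80, 4.81, 4.35 and 4.70 in wild-type embryos 1 to 4 and 4.24, 3.61, 3.94 and 3.79 in mutants 1 to 4. It was thus highest of each group in wild-type 2 and mutant 1, where replication genes were low. Wild-type 4, where replication genes were high, was close to wild-type 2. Wild-type 1, where they were low, had the lowest arch value of its group. All 12 had a fold change below 0 (median log2 -0.42), with 0 called and 3 at an unadjusted p under 0.05. The 12 macrophage genes summed to 29.4 to 37.2 CPM in wild-type embryos and 37.4 to 65.4 CPM in mutants. All 12 had a fold change above 0 (median log2 0.50), with 0 called, 2 at an unadjusted p under 0.05 and 1 without overlap between the groups. The part of cell composition in the replication values was not tested.

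**Figure D4:**
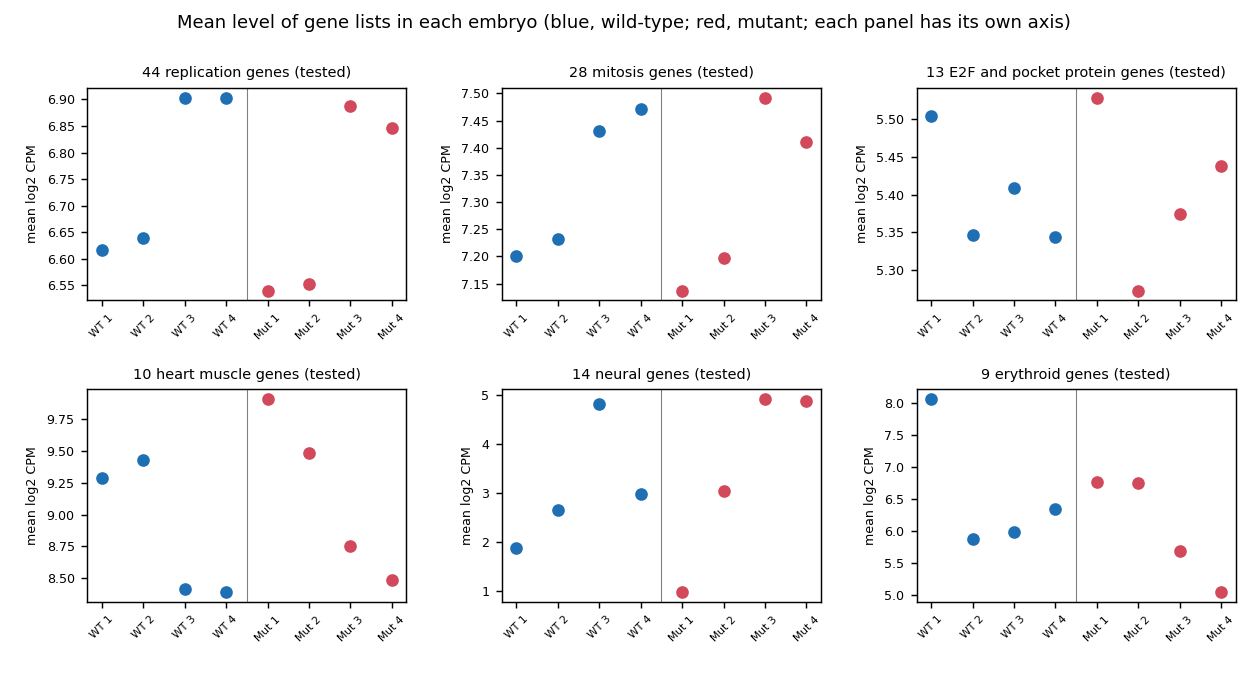
Each panel gives the mean log2 CPM of a list of genes in every embryo, with wild-type embryos in blue and mutants in red, on its own axis. Replication and mitosis genes are high in embryos 3 and 4 of both genotypes (replication 6.85 to 6.90), heart muscle genes are low there (8.39 to 8.76), and erythroid genes are highest in wild-type 1 (8.06).

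Ratios between partner genes within a library do not depend on scaling, and 9 were compared by exact permutation over the 70 assignments of 4 of 8 libraries (two-sided, smallest possible p 0.0286). The ratio of Pola1 to Prim1, both in the polymerase α and primase complex, had the smallest p. It was 2.29, 2.37, 2.47 and 2.20 in wild-type embryos and 2.39, 2.82, 2.47 and 2.54 in mutants, a log2 difference of 0.13 (exact permutation p = 0.0857, adjusted p = 0.771 over the 9 ratios). It was higher in 3 of 4 pairs, and the groups overlapped.

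The ratio of Cdt1 to Gmnn, the gene of its inhibitor geminin, was 0.900, 0.629, 0.480 and 0.652 in wild-type embryos and 1.38, 0.663, 0.460 and 0.672 in mutants. Its log2 difference was 0.17 (exact permutation p = 0.629), and it was -0.14 without mutant 1, which alone exceeded 1. The ratio of Ccne2 to Ccne1 was 1.42, 1.16, 1.53 and 0.901 in wild-type embryos and 1.16, 1.47, 1.30 and 0.926 in mutants, lowest in embryo 4 of each group (log2 difference -0.04, exact permutation p = 0.857). Rrm2 was at 0.395 to 0.648 of Rrm1 over all libraries (exact permutation p = 0.771). Orc1 to Orc2 was higher in mutants in 4 of 4 pairs, by 0.0098 to 0.15 on the log2 scale (exact permutation p = 0.371). Mcm10 to Mcm2, Pole to Pold1, Chaf1b to Chaf1a and Slbp to Pcna differed by -0.012, 0.07, 0.02 and -0.011 on the log2 scale. For all 9 ratios the adjusted p was 0.771 or 0.971, and a single ratio at the smallest possible p could not have passed after adjustment over 9.

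The rest of the pathway, from 6 lists of 75 other genes, gave 0 calls as well. Of 15 further licensing and firing genes 6 were higher and 9 lower (median log2 -0.02), and those with the smallest p were Donson, a fork component, at -0.11 and Orc4 at -0.12. Of 17 further fork genes 5 were higher and 12 lower (median -0.02). Rnaseh2c, a subunit of the RNase that removes RNA from DNA, was at 28.8 ± 3.39 CPM in wild-type embryos and 23.0 ± 3.18 CPM in mutants (log2 -0.33, unadjusted p = 0.0362 in the edgeR test of all genes), and Chtf8, of an alternative clamp loader, was at -0.10. Of 8 nucleotide genes 2 were higher and 6 lower (median -0.08), with Dtymk, which phosphorylates thymidylate, at -0.09 and Rrm2b at 0.14. Of 8 chromatin genes 3 were higher and 5 lower (median -0.03), with the histone chaperone Asf1a at -0.13 and Cdca7 at -0.12.

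Taken as lists, genes that regulate entry into S phase did not share the pattern between embryos. Single genes of these lists did, among them Cdk2, Cdk4, Skp2, E2f5 and Tfdp1. Of 13 E2F and pocket protein genes 8 were higher and 5 lower (median 0.0064), with E2f3 at -0.11 and Rb1, the retinoblastoma gene, at 0.23. Members of this list above their own mean numbered 8, 5, 6 and 3 in wild-type embryos 1 to 4 and 9, 2, 6 and 9 in mutants 1 to 4. Of 14 genes of G1 and S phase kinases 5 were higher and 9 lower (median -0.03). In this list 5, 7, 5 and 7 genes were above their own mean in wild-type embryos 1 to 4. In mutants 1 to 4 there were 8, 6, 7 and 8. Ccnd2, a D cyclin, was at 550, 602, 609 and 608 CPM in wild-type embryos and 609, 712, 851 and 753 CPM in mutants (log2 0.30, interval 0.04 to 0.57, unadjusted p = 0.0285 in the edgeR test of all genes). Mutant 1 fell just inside the wild-type range. Cdkn1a, a p53-induced inhibitor of cyclin-dependent kinases, was at 5.01 ± 0.65 CPM in wild-type embryos and 6.17 ± 0.373 CPM in mutants (SD, n = 4 each), with a log2 fold change of 0.30 and an interval from -0.07 to 0.67.

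Members had a low spread between embryos, as did related lists, and a few shared a promoter region with a neighbour. The median tagwise biological coefficient of variation was 16.6% for the members and 20.2% for all tested genes, whose median level is lower (22.9 against 91.5 CPM). A protein-coding gene started within 1000 bases upstream on the other strand for 6 members (13.6%), against 9.50% of tested protein-coding genes. Among these, Mcm4 starts 466 bases from Prkdc, a DNA repair kinase, with log2 fold changes of 0.0156 and 0.0066, and Orc1 starts 87 bases from Prpf38a, a splicing factor, with 0.0099 and -0.06. Exons of 15 members overlap a gene on the other strand, among them Mcm7, Fen1, Orc2, Orc6, Lig1, Slbp and Ccne2, and the sources used here do not state whether the counting used strand.

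All 44 members are in the authors' deposited table of mutants against wild-type embryos, where their lowest false discovery rate was 1.0. Fold changes below 0 numbered 32 in the authors' deposited table, and the median on the log2 scale was -0.0476.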

How the data were processed

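RNA was measured in 8 libraries, 4 per genotype, made from 300 ng of total RNA each with a stranded kit and removal of ribosomal RNA, per the labels' protocols. The authors deposited raw counts per gene symbol, and the submitters' processing notes name TopHat2 2.0.11, HTSeq 0.6.1, edgeR 3.14 and mm10. The sources used here state no annotation, read filter or strand setting for the counting. The authors' normalized table was not used. The authors' deposited comparison gives log2 fold changes and a false discovery rate, that is, an adjusted p-value, and is used only where named.

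Genes were kept with filterByExpr and scaled with TMM in edgeR 4.0.16 (R 4.3.3), and each gene was tested for genotype alone (quasi-likelihood F test, two-sided) with Benjamini-Hochberg adjustment over all 14861 genes. A call is an adjusted p under 0.05. Log2 CPM used a prior count of 2 and ratios 0.5 added to each count. Standard errors are the log2 fold change over the square root of F, and intervals use the degrees of freedom of that test. The same fit was tested on simulated data. GENCODE M21 (mm10) gave positions, exon lengths and transcripts for all 44 members, and RefSeq the promoters. Symbols of the other lists absent from the table were sought through RefSeq synonyms.

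Alternatives were RLE and unscaled totals, other filters, DESeq2 1.42.0, limma-voom (limma 3.58.1), a replicate block and leaving out each library. Same-numbered libraries deviated together (correlations 0.556, 0.185, 0.676 and 0.186), so the numbers were read as pairs, a reading that comes from the data and not from the labels. Some differently numbered libraries correlated more strongly than some of these. Values in every library are given for the most abundant member and the one with the smallest p in each role group. For the pathway lists the 2 genes with the smallest p are named. The members and lists were chosen with earlier results of these data known.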

Additional observations from a re-analysis of the deposited data

Results flagged for a closer look

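Over 108 groups of 4 embryos examined for a library far from the others, 1 stood out. Chance alone gives about 1 in 20 groups, so 1 in 108 is below that rate. Rpa3 was at 52.7 CPM in wild-type 3 and at 32.6 to 34.9 CPM in the other wild-type embryos. The gap to the nearest was 0.881 of the range, above the critical value of Dixon's test for 4 libraries. In mutant 3 Rpa3 was also the highest of its group, at 41.8 CPM, and the longest transcript of Rpa3 has 34.2% G and C, the lowest of the 44 members. The part of base composition in this value was not tested.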

How the results depend on the processing

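In every fit run, 0 members were called, with edgeR under other scalings and filters, DESeq2, limma-voom, the replicate block and each library left out; at an unadjusted p under 0.05 there were 0 members in each of these except 3 with the replicate block and 1 without mutant 3. The count of higher members was 12, and it was 20 on library totals alone and 4 to 27 over the fits that left out 1 library, where the median log2 fold change ran from -0.13 to 0.0198. The paired analysis with the replicate block gave 9 higher members and a median of -0.0567, and it changed no other call. Pygo2 ran from -1.46 to -1.35, and 0 to 1 genes were called in all, with 0 called without wild-type 1 or 2 or mutant 2, 3 or 4 (adjusted p 0.0549 to 0.0973). Of 225 log2 fold changes of the 15 genes given in every library, 16 changed sign, and 8 of the 15 genes never did. Mcm10 was at -0.0145 with limma-voom and with the replicate block. With 1 library left out the ranges of those that changed sign were -0.15 to 0.0077 for Orc2, -0.18 to 0.0482 for Mcm7, -0.13 to 0.11 for Mcm10, -0.0573 to 0.17 for Pola1, -0.22 to 0.0131 for Pcna, -0.14 to 0.0187 for Rrm1 and -0.24 to 0.0147 for Ccne2. The log2 differences of ratios ran from -0.19 to 0.0857 for Ccne2 to Ccne1, -0.14 to 0.39 for Cdt1 to Gmnn, -0.17 to 0.0608 for Rrm2 to Rrm1, -0.0951 to 0.0589 for Mcm10 to Mcm2, -0.0392 to 0.16 for Pole to Pold1, -0.14 to 0.25 for Chaf1b to Chaf1a and -0.0874 to 0.0702 for Slbp to Pcna. A single ratio could not pass after adjustment, and the smallest sign-flip p over 4 pairs is 0.125, so these tests say nothing about the stability of the ratios. Ordered by the longest transcript, 8 of the 10 most abundant members per length were the same. The causes were not tested. Each member had at least 542 counts in every library. With 4 embryos a group, differences within the intervals given above remain compatible with the data in the fit for genotype alone. These intervals are not the limits of what the test could call.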
